A study of Mus musculus with 45 samples.

Results

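The insulin-like growth factor (IGF) genes described here are Igfbp2, Igfbp3, Igfbp4, Igfbp5, Igfbp6 and Igfbp7, which encode IGF-binding proteins, Igf1r, which encodes the type 1 IGF receptor, and Igf1, which encodes a ligand. They are a fixed list of gene names, and all 8 had a row among the 23575 genes of the deposited gene table. Their levels were followed in 45 long-read RNA libraries made while mouse neural progenitor cells were reprogrammed to pluripotency. Values are CPM, read counts scaled to a common library total, and differences are given on the log2(CPM + 1) scale unless a sentence says otherwise.

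All progenitors came from Oct4-GFP embryonic stem cells (O4G), a derivative of the R1 line, and were stably transfected lines labelled OKMS-Luciferase-AS or OKS-Luciferase-AS, or were wild type (WT). OKMS stands for Oct4, Klf4, Myc and Sox2, and OKS for the same factors without Myc, expressed under doxycycline. The labels do not say whether a line was 1 clone, and they do not give the role of the luciferase element that both factor lines carry. Progenitors (day 0) grew in N2B27-based medium with 20 µg/mL insulin, 20 ng/mL EGF, 20 ng/mL FGF-2 and heparin. Induced cells were moved to FBS-LIF, which holds 15% fetal bovine serum and LIF, with 1 µg/mL doxycycline, here called serum. WT progenitors held in the same doxycycline-containing serum for 2 days were the medium control. The 2iL medium has an N2B27 base that again contains 20 µg/mL insulin, with LIF, 3 µM CHIR99021 and 1 µM PD0325901. Cells in the R9 libraries entered it at day 6, and the day is not given for the R10 libraries. Embryonic stem cells of the lines O4G, R1 and R1-Clone3, also labelled as grown in 2iL, were the pluripotent reference. Of the libraries, 22 were direct cDNA of poly(A) RNA read on R9 flow cells (R9 below), and 23 were amplified by PCR from total RNA and read on R10 flow cells (R10 below).

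As background, IGF1 and IGF2 act through the type 1 IGF receptor, a tyrosine kinase that signals through IRS adaptors to PI3 kinase and AKT. Secreted IGF-binding proteins hold most extracellular IGF, and they can carry it, withhold it from the receptor or release it after cleavage by proteases such as PAPP-A. The classical binding proteins bind IGF with high affinity, whereas IGFBP7 is a related extracellular matrix protein that binds IGF weakly. In the developing brain, IGF signalling is known for its role in the growth and survival of neural progenitors, and high insulin in a culture medium can also engage the IGF receptor.

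On mouse build GRCm38 (mm10), Igfbp2 and Igfbp5 are neighbours on chromosome 1. Igfbp2 lies at 72824503 to 72852474 on the plus strand and Igfbp5 at 72857932 to 72874884 on the minus strand, so their 3′ ends face each other across 5457 bases (GENCODE M21). Igfbp3 is on chromosome 11 at 7206086 to 7213923 (minus strand), and Igfbp4 lies further along chromosome 11 at 99041244 to 99054392 (plus strand). Igfbp6 is on chromosome 15 (102144362 to 102149511), Igfbp7 on chromosome 5 (77349240 to 77408041), Igf1r on chromosome 7 (67952827 to 68233668) and Igf1 on chromosome 10 (87858265 to 87937042).

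RefSeq promoters (GRCm38.p6, from 250 bases before to 50 bases after the start) were matched by symbol for 8 of 8 genes. Below are the promoters of 4 binding protein genes whose called changes recur in the results: Igfbp3 and Igfbp4, which fell between progenitors and pluripotent cells, Igfbp5, which rose in WT serum, and Igfbp7, which rose in serum and in stem cells. Capitals mark matches, on either strand, to the core promoter motif TATAAA, to the motif GGGCGG that Sp1-type factors bind and is called a GC box, to the motif CCAAT known from NF-Y sites, to the palindrome CACGTG called an E-box, or to the motif TGANTCA bound by AP-1 factors. The windows are chr11:7213874-7214173, minus strand, chr11:99040994-99041293, plus strand, chr1:72874816-72875115, minus strand and chr5:77407996-77408295, minus strand, each written 5′ to 3′ along its gene.
Igfbp3: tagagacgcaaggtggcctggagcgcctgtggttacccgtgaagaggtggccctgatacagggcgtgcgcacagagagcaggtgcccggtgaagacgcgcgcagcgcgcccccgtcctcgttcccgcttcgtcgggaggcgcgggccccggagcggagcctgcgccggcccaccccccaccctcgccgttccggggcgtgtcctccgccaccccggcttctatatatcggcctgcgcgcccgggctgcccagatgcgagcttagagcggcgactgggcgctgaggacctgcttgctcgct
Igfbp4: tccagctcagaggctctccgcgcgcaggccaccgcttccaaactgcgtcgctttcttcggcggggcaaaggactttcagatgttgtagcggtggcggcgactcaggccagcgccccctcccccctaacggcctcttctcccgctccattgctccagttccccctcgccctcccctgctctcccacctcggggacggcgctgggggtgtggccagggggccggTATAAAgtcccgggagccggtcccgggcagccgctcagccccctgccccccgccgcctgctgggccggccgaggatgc
Igfbp5: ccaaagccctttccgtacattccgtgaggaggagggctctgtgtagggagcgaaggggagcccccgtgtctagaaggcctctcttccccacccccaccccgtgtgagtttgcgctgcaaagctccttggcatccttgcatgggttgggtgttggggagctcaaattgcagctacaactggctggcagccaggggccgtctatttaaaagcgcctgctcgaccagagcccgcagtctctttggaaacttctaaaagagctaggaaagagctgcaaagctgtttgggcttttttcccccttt
Igfbp7: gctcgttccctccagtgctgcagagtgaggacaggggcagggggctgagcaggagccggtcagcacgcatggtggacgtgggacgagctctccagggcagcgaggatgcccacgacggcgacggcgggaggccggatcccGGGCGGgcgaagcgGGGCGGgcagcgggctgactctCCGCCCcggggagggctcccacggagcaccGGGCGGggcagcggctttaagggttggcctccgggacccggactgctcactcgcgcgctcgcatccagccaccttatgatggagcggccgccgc

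The Igfbp7 window held 4 GC boxes, 1 of them on the opposite strand, the Igfbp4 window 1 TATAAA, and the Igfbp3 and Igfbp5 windows none of the searched motifs. Among 32817 promoters of the same length, 35.6% held a GC box, 13.6% the TATAAA motif, 37.4% the CCAAT motif, 7.15% an E-box and 7.81% an AP-1 site. GC content was 71.7% for Igfbp3, 71.3% for Igfbp4, 73.3% for Igfbp7 and 76.0% for Igf1r, but 56.3% for Igfbp5 and 52.3% for Igf1, against a median of 52.7%. Igfbp3 and Igfbp7, both with GC-rich promoters, went in opposite directions between progenitors and stem cells. A relation between promoter composition and these levels was not tested.

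Depth, read from the whole-read steps of the CPM values, was 448250 to 1391635 reads in R9 and 567129 to 4245818 reads in R10, so 1 read was worth more CPM in most R9 libraries. Mitochondrial genes took 0.310% to 0.990% of reads in R9. In R10, 5 libraries formed a low group at 0.124% to 0.319%, namely both WT progenitor and both WT serum libraries and the R1 stem cell library whose label carries no n number, and the other 18 were at 0.730% to 2.35%. The labels fitted the summed markers of both end points. In at least 1 library, 7 of 8 neural progenitor markers reached 1 CPM in the progenitors (Sox1 was at 0 in all 8 of their libraries). Likewise 8 of 8 pluripotency markers did in the stem cells. Such counts do not separate the cell types, as 8 of 8 pluripotency markers also reached 1 CPM in R10 progenitors, and 5 of 8 neural progenitor markers in R10 stem cells. Summed neural progenitor markers came to 3974 to 5177 CPM in R10 progenitors and 89.9 to 175 CPM in R10 stem cells, and summed pluripotency markers to 17.1 to 28.0 and 11256 to 13878 CPM. In bulk RNA such as this, fewer cells of a type and less RNA per cell cannot be told apart. The labels do not say that libraries of a group came from separate cultures, so p-values measure the spread between these libraries only, which may be technical.

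The first comparison asked how the IGF genes differ between the starting cells and the pluripotent reference. Progenitors expressed a set of binding proteins that stem cells nearly lacked: Igfbp4, Igfbp3 and Igfbp5 were lower in stem cells, as were Igfbp2 and the receptor gene Igf1r, and Igfbp7 alone among the tested genes was higher. Igfbp4 averaged 837 ± 166 CPM (SD, n = 4) in R10 progenitors, with single values of 990.3, 875, 601 and 879.7 CPM, and its lowest, median and highest values in the 7 R10 stem cell libraries were 0.290, 1.16 and 5.60 CPM. Igfbp3 read 301, 232, 134 and 216 CPM in the same progenitors and 0.580 to 4.11 CPM in the stem cells. For both genes every progenitor library lay above every stem cell library, and the means differed by 531-fold for Igfbp4, or 925-fold without the R1 library that read 5.60 CPM, and by 122-fold for Igfbp3. Igfbp5, known as the most conserved binding protein, ranged over 31.0 to 61.9 CPM in progenitors and 0.236 to 3.28 CPM in stem cells, and Igf1r over 74.3 to 124 CPM and 2.71 to 7.27 CPM. Igfbp2 stayed well expressed in stem cells, at 76.7 ± 10.1 CPM (SD, n = 7) against 438 ± 147 CPM (SD, n = 4). Igfbp7 was close to 0 in R10 progenitors, at 0 to 0.861 CPM, and read 1.65 to 14.4 CPM in stem cells. Among these stem cells Igfbp7 read 1.65 and 5.38 CPM in the 2 O4G libraries, 4.06 and 9.68 CPM in R1-Clone3 and 14.0, 14.4 and 13.1 CPM in R1. The difference between lines was not tested. Progenitors and stem cells also differed in medium (EGF and FGF-2 against LIF and the inhibitors), and its part and that of the cell type cannot be told apart. Igf1 had no read in 9 of 9 stem cell libraries, which allows up to 2.84 CPM in the shallowest, and Igfbp6 stayed under 1 CPM in all of them. Neither gene was tested, as neither had 1 CPM in as many libraries as the smaller arm holds: Igfbp6 reached it in 3 of 4 R10 and 1 of 4 R9 progenitor libraries. In R10 the ranges of Igfbp6 did not overlap either (0.879 to 4.45 CPM in progenitors and 0 to 0.580 CPM in stem cells), which was so, in this direction, for 26.0% of tested genes.

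By limma with Benjamini-Hochberg adjustment over 15413 genes, 6 of 6 tested members were called in R10 (adjusted p under 0.05 and an absolute log2 difference of at least 1), 5 lower and 1 higher in stem cells, where 45.8% of all genes were called, 23.4% lower and 22.4% higher. The differences were -8.53 ± 0.34 (SE) for Igfbp4, -6.34 ± 0.30 (SE) for Igfbp3, -4.45 ± 0.34 (SE) for Igfbp5, -3.94 ± 0.25 (SE) for Igf1r, -2.43 ± 0.20 (SE) for Igfbp2 and 2.58 ± 0.43 (SE) for Igfbp7, with adjusted p-values from 8.63e-12 to 7.66e-05. The same 6 genes were called in the same directions in R9 (4 progenitor and 2 stem cell libraries), where 36.0% of 15744 genes were called, 18.4% lower and 17.6% higher. There Igfbp4 fell by 8.20 and Igfbp3 by 6.98, while Igfbp7 rose by 4.36 ± 1.00 (SE), from 0 to 10.7 CPM to 36.3 and 124 CPM in R1 and O4G. The O4G line was thus the higher of the lines for Igfbp7 in R9 and the lowest in R10, and with 1 library a line in R9 this was not tested. With either R9 stem cell library left out, the other is assumed to vary like the progenitors, and the R9 calls of Igfbp7 and Igf1r ended (adjusted p up to 0.193 and 0.125) at differences of 3.49 and 5.23 and -2.63 and -2.93. Mitochondrial shares moved with this comparison in R10: the 6 stem cell libraries outside the low group were at 1.81% to 2.35% and the OKMS and OKS progenitors at 1.08% and 1.12%. Without the libraries of the low group, an alternative added after the data were seen, the same 6 members were called, with -8.97 for Igfbp4 and 2.62 for Igfbp7, among 7754 genes in all.

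**Figure D1:**
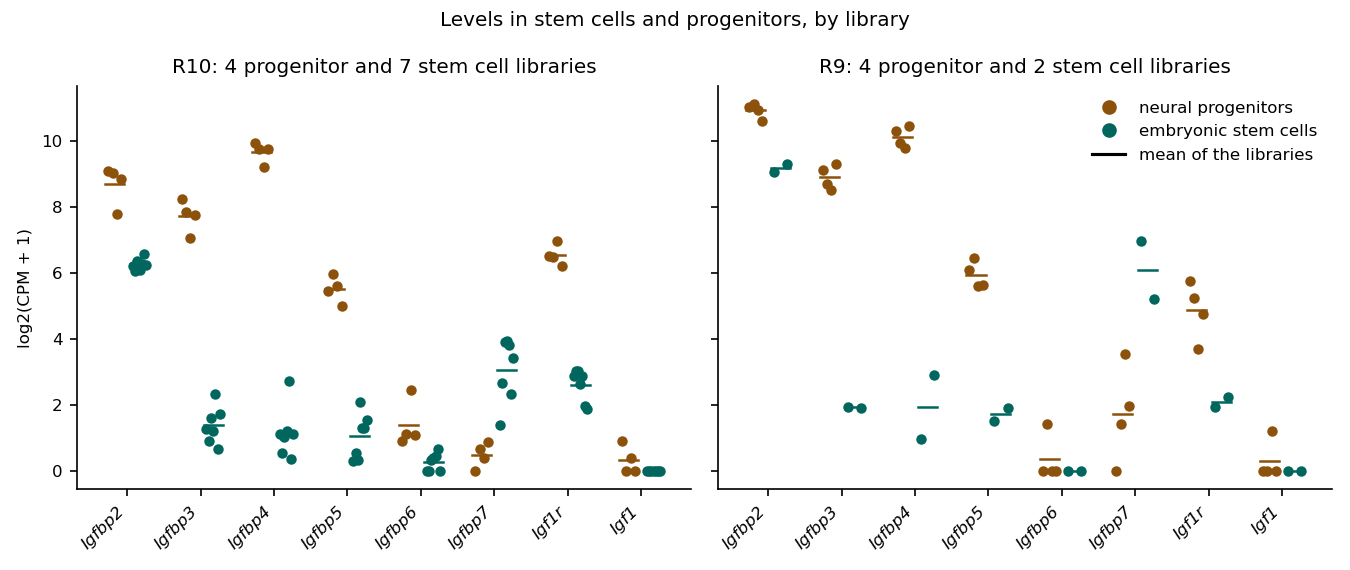
Levels of the 8 genes on the log2(CPM + 1) scale (y axis) in neural progenitors (brown) and embryonic stem cells (green), R10 on the left and R9 on the right, with 1 point a library and a bar at the mean of the libraries. Igfbp4 sits at 601 to 990.3 CPM in R10 progenitors and 0.290 to 5.60 CPM in R10 stem cells, and Igfbp7 is the gene that is higher in stem cells in both panels.

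Between genes, levels were compared as length-scaled TPM summed over a gene's transcripts. In R10 progenitors the order of the medians was Igfbp4 (80.9 TPM), Igfbp2 (67.3), Igfbp3 (28.3), Igf1r (22.8) and Igfbp5 (8.61), with Igfbp6 at 1.04, Igf1 at 0.382 and Igfbp7 at 0. Neighbours in that order overlapped down to Igf1r, but Igfbp4 (62.5 to 88.3 TPM) was clear of Igfbp3 (21.6 to 33.8 TPM), Igfbp2 (31.2 to 76.8 TPM) of Igf1r (15.6 to 24.6 TPM), and Igf1r of Igfbp5. In R9 progenitors Igfbp2 led with a median of 1121 TPM, clear of Igfbp4 (160.0 TPM) and Igfbp3 (159 TPM), which overlapped. Igf1r and Igfbp5 stood in the opposite order there, with Igfbp5 (8.91 to 32.6 TPM) clear of Igf1r (0 to 7.96 TPM). In stem cells Igfbp2 led in both preparations, at medians of 20.4 TPM in R10 and 359 TPM in R9, followed by Igfbp7 at 7.17 and 103 TPM, without overlap.

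The WT control asked what the change from progenitor medium to doxycycline-containing serum does in 2 days without reprogramming factors. Igfbp5, Igfbp7 and Igf1 were higher and Igfbp4 was lower in serum, while Igfbp2, Igfbp3, Igfbp6 and Igf1r were not called. Igf1, the ligand, had 0.318 and 0 CPM in the R10 WT progenitors and 20.4 and 12.5 CPM after 2 days in serum, and in R9 it had 1.34 and 0 CPM before and 19.8 CPM after. Igfbp5 went from 48.3 and 31.0 CPM to 742 and 424 CPM in R10, and from 48.1 and 49.4 CPM to 199 CPM in R9. The 742 CPM of the first R10 serum library is the highest Igfbp5 value of the 45 libraries. Igfbp4 went the other way, from 601 and 879.7 CPM to 90.8 and 184 CPM in R10 and from 896 and 1412 CPM to 406 CPM in R9. In each preparation every serum value of Igf1 and Igfbp5 was above, and of Igfbp4 below, every progenitor value, but with so few libraries 67.6% of genes in R10 and 79.1% in R9 did not overlap either. Igfbp7 read 0.318 and 0.861 CPM before and 2.35 and 27.3 CPM after in R10, and 10.7 and 2.90 CPM before and 359 CPM after in R9, so its level in serum ran from 2.35 to 359 CPM. Igfbp2 had 224 and 463 CPM before and 97.9 and 369.9 CPM after in R10, and 2001 and 1571 CPM before and 2571 CPM after in R9, so it overlapped in R10. Measured per length, Igfbp5 was the leading member in the R10 WT serum libraries, with a median of 118 TPM against 38.5 TPM for Igfbp2, without overlap, whereas the R9 serum library had 1600.0 TPM of Igfbp2 and 66.7 TPM of Igfbp5.

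With preparation as an additive term, limma called 4 of 8 members over 14672 genes, where 31.8% of all genes were called in either direction. The differences were 3.10 ± 0.36 (SE) for Igfbp5 (adjusted p = 8.72e-05), 3.84 ± 0.44 (SE) for Igf1 (adjusted p = 7.44e-05), 3.88 ± 0.82 (SE) for Igfbp7 (adjusted p = 0.00369) and -2.08 ± 0.31 (SE) for Igfbp4 (adjusted p = 4.57e-04). The median difference was 0.61 over the members and 0.12 over all tested genes. Igfbp6 missed the call at 1.12 ± 0.48 (SE), adjusted p = 0.0849. Igf1r, at 0.094 ± 0.34 (SE), and Igfbp2, at -0.24 ± 0.45 (SE), were each within 1 standard error of 0 and had opposite signs in the 2 preparations. Igfbp7 lost its call without the R9 serum library (2.64, adjusted p = 0.0955), and R9 alone, where the single serum library is assumed to vary like the progenitor ones, called Igfbp5 and Igfbp6. The Igfbp6 call in R9 rests on 1 read (1.41 CPM) against 0 reads in both R9 WT progenitor libraries. The 2 R10 serum libraries also differed in astrocyte markers, whose sum was 3057 and 1188 CPM, against 265 CPM in the R9 serum library and 42.6 to 181 CPM in R10 progenitors. That sum was highest in the library where Igfbp5 was highest and Igfbp7 lowest, and its part in the result was not tested. Serum, LIF, doxycycline and a gelatin coating came in and EGF, FGF-2, heparin and the N2B27 base with its insulin went out together, and their effects cannot be told apart.

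**Figure D2:**
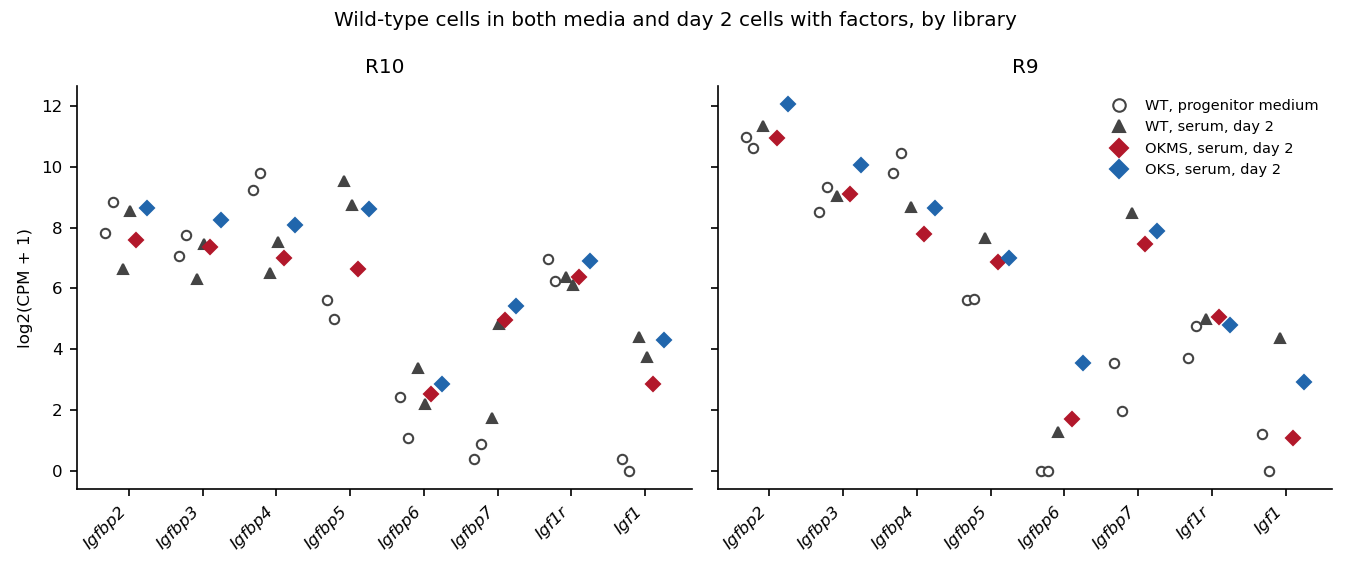
Levels on the log2(CPM + 1) scale (y axis) of the 8 genes in WT cells in progenitor medium (open circles), WT cells after 2 days in doxycycline-containing serum (triangles) and OKMS (red) or OKS (blue) cells at day 2 in serum, R10 on the left and R9 on the right, 1 point a library. Igfbp5 rises from 48.3 and 31.0 CPM to 742 and 424 CPM in R10 WT cells, and Igfbp5 in cells with factors lies below the WT serum values of the same preparation.

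Cells that also carried factors were compared with the WT serum cells at day 2, in the same medium. The factor cells are separate transfected lines, so the factors and any other difference between these lines and WT cells cannot be told apart. None of the 8 members was called (limma, 15635 genes), where 1.48% of all genes were called, 1.40% higher and 0.0831% lower, and edgeR and DESeq2 called 0 members as well. That all-gene count of 232 was 546 by DESeq2, ran from 41 (without R10 WT serum replicate 3) to 479 (without the R9 OKS library) with single libraries left out, and was 114 in R10 alone and 0 in R9 alone. An unadjusted p under 0.05 was found for 2492 of the 15635 genes, 1 of them a member: Igfbp5, at -1.19 ± 0.42 (SE) with an unadjusted p of 0.0144 and an adjusted p of 0.204. It read 98.0 and 387 CPM in R10 OKMS and OKS cells and 116 and 128 CPM in R9, in each preparation below every WT serum library, and 47.2% of genes in R10 and 61.8% in R9 had ranges that did not overlap. Summed astrocyte markers moved the same way in R10, at 164 and 633 CPM in OKMS and OKS cells and 3057 and 1188 CPM in WT, and in R9 they were 162 and 290.1 CPM against 265 CPM. Mitochondrial shares in R10 were 1.51% and 1.64% with factors and 0.165% and 0.319% in WT serum, and the part of either measure in the result was not tested. Igf1 was 6.32 and 18.7 CPM in R10 OKMS and OKS cells and 1.13 and 6.69 CPM in R9, at -1.25 ± 0.61 (SE) against WT (adjusted p = 0.333). Igfbp7 ran the other way in R10, with 30.0 and 41.8 CPM in OKMS and OKS cells against 2.35 and 27.3 CPM in WT, and in R9 it had 176 and 238 against 359 CPM.

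The R9 series followed both factor lines from day 0 to day 20 in serum, with 1 library a line and day. Igfbp4 and Igfbp5 went down over the course, Igfbp7 went up within 2 days and stayed up, and the other 5 genes did not pass the test over all days. Day 0 was in progenitor medium and every later day in doxycycline-containing serum. Against day 0, the change of medium and the time with factors thus cannot be told apart. In the R9 WT cells above, Igfbp5 and Igfbp7 were also higher, and Igfbp4 lower, after 2 days in serum. Igfbp4 started at 1260.1 and 989.9 CPM in OKMS and OKS progenitors, and read 219, 27.1, 28.7, 32.4, 30.6 and 4.93 CPM in OKMS cells at days 2, 4, 6, 10, 14 and 20 and 401, 176, 123, 125, 49.6 and 27.3 CPM in OKS cells. In both lines it was below day 0 at every later day. Igfbp5 started at 67.3 and 87.7 CPM, was 116 and 128 CPM at day 2, 10.9 and 22.8 CPM at day 6 and 0 and 1.65 CPM at day 14, and had no read in either line at day 20. Its day 2 values were thus above day 0 in both lines before it went down. Igfbp7 started at 0 and 1.69 CPM and read 176, 45.9, 17.7, 64.7, 156 and 12.3 CPM in OKMS cells at days 2, 4, 6, 10, 14 and 20 and 238, 249, 239.6, 161, 317 and 58.2 CPM in OKS cells. Its OKS values lay between 161 and 317 CPM from day 2 to day 14, whereas its OKMS values dipped at day 6 and peaked at days 2 and 14. Igf1 had no read in either line at day 0 and read 6.69, 15.3, 29.5, 17.8, 8.27 and 0.719 CPM in OKS cells at those days, a peak at day 6, against 1.13, 2.09, 1.36, 0, 0 and 0 CPM in OKMS cells, where no library held more than 1 read. Igfbp6, an IGF2-preferring binding protein, read 10.7, 8.58, 9.37, 17.8, 21.5 and 2.16 CPM in OKS cells and 2.26, 14.6, 6.82, 5.63, 2.11 and 0 CPM in OKMS cells.

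Limma's F test of all days against day 0, with the line as an additive term, called 3 of 8 members over 19355 genes, where 10.7% of all genes were called, 5.49% with a positive and 5.24% with a negative largest difference. The largest differences were 7.09 ± 0.60 (SE) for Igfbp7 at day 14 (adjusted p = 2.94e-04), -6.43 ± 0.58 (SE) for Igfbp4 at day 20 (adjusted p = 7.47e-04) and -6.28 ± 0.61 (SE) for Igfbp5 at day 20 (adjusted p = 2.49e-04). Igfbp2 (-3.09 at day 20, adjusted p = 0.0626) and Igf1r (-1.87 at day 20, adjusted p = 0.0780) did not pass, and neither did Igfbp3 (-2.55, adjusted p = 0.226), Igfbp6 (2.90, adjusted p = 0.0947) and Igf1 (3.09 at day 6, adjusted p = 0.213). Igfbp2 was called under 6 of 13 alternatives, among them edgeR, DESeq2 and median centring, with adjusted p-values from 9.81e-18 to 0.356. edgeR's quasi-likelihood test on the recovered reads called 8 of 8 members and 4568 genes in all, and DESeq2 4 members and 2563 genes, against 2076 genes by limma.

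**Figure D3:**
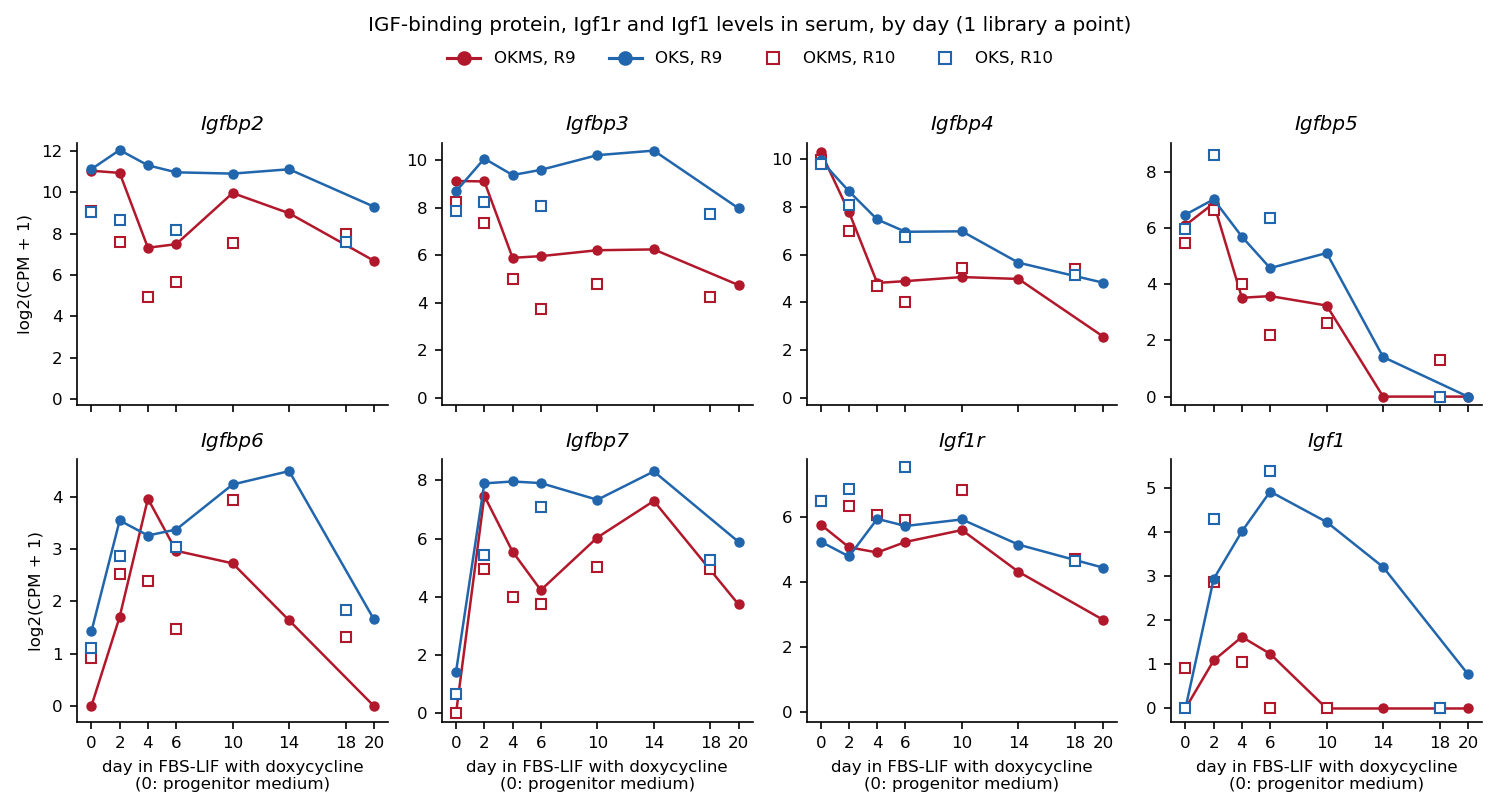
Levels on the log2(CPM + 1) scale (y axis) against day in doxycycline-containing serum (x axis, 0 being progenitor medium) for the 8 genes, OKMS in red and OKS in blue, with R9 libraries as joined filled circles and R10 libraries as open squares. The OKS line stays above the OKMS line for Igfbp3 from day 2 to day 20, by up to 18.1-fold at day 14, while Igfbp4 and Igfbp5 decline in both.

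The lines with and without Myc were then compared at the same days in R9. With 1 labelled line of each kind, Myc and any other difference between the lines cannot be told apart. The pairs are days of these same lines, so the p-values describe these lines only. All 8 fitted differences were towards lower levels in OKMS cells, 6 passed the test, and Igfbp3 differed most. Igfbp3, which encodes the main IGF carrier of the blood, read 1072, 663, 771, 1185, 1352 and 251 CPM in OKS cells at days 2, 4, 6, 10, 14 and 20 and 550.3, 58.4, 61.4, 73.1, 74.9 and 25.9 CPM in OKMS cells. OKS exceeded OKMS by 1.95-fold at day 2 and by 9.70 to 18.1-fold at the 5 later days. Over all days the ranges of the lines overlapped, as OKMS at day 2 lay above OKS at day 20. Igfbp2 read 4236, 2535, 2005, 1919, 2222 and 632 CPM in OKS cells and 1966, 159, 179, 1000.1, 506 and 102 CPM in OKMS cells, so the ratio was 2.15 at day 2, 16.0 at day 4, 11.2 at day 6 and 1.92 at day 10. In OKMS cells it thus dropped steeply by day 4 and was higher again at day 10, whereas in OKS cells it stayed at 1919 CPM or more until day 14. Igfbp7 differed by 1.35-fold at day 2, 5.42-fold at day 4, 13.5-fold at day 6 and 2.03-fold at day 14, and Igfbp4 by 1.62 to 6.50-fold. For Igf1, which had no read in OKMS cells at days 10 and 14, OKS was at least 4.23-fold and 2.61-fold higher, taking 3 reads in the OKMS library as its limit. Igf1r read 26.7, 61.0, 52.2, 60.2, 34.7 and 20.8 CPM in OKS and 32.8, 29.2, 36.8, 47.8, 19.0 and 6.16 CPM in OKMS cells and was closest to equal, with OKS over OKMS ratios of 0.816 at day 2, 1.26 at day 10 and 3.38 at day 20.

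With day as a block, limma called 6 of 8 members lower in OKMS cells and 0 higher, over 14275 genes of which 11.0% were called lower and 6.94% higher. The differences were -3.24 ± 0.32 (SE) for Igfbp3 (adjusted p = 3.91e-04), -2.69 ± 0.50 (SE) for Igf1 (0.00260), -2.38 ± 0.34 (SE) for Igfbp2 (9.58e-04), -1.83 ± 0.33 (SE) for Igfbp7 (0.00224), -1.74 ± 0.26 (SE) for Igfbp4 (0.00108) and -1.10 ± 0.38 (SE) for Igfbp5 (0.0483). Of all calls 38.6% were higher in OKMS, against 48.2% with quantile normalization and 53.8% with median centring, and with these scalings the same members but Igfbp5 were called lower. The median was -1.79 over the members and -0.11 over all tested genes. Igfbp2, Igfbp3, Igfbp4 and Igfbp7 were lower in OKMS at 6 of 6 days, as 13.8% of genes were. By CPM Igf1 was as well, but at day 20 it had 0 reads in OKMS against 1 in OKS cells, too few to give a direction. At day 2 it had 1 against 5 reads. Igfbp6 (-1.26 ± 0.47 (SE), adjusted p = 0.0608) and Igf1r (-0.67 ± 0.26 (SE), adjusted p = 0.0701) did not pass. Without the day block, which leaves the change over days in the error, 0 members were called (adjusted p from 0.0694 to 0.576 for the 6), and the call of Igfbp5 was lost under 10 of 15 alternatives.

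Other cell markers moved with this comparison. Summed smooth muscle markers (3 of 4 reached 1 CPM, with Myh11 at 0) came to 139 to 877 CPM in OKMS and 744 to 3347 CPM in OKS cells and were lower in OKMS at 6 of 6 days. Fibroblast and mesenchymal markers (8 of 8 reached 1 CPM) came to 24.6 to 182 and 113 to 233 CPM and were lower at 6 of 6 days too. Neural progenitor markers, 135 to 2390.1 CPM in OKMS and 182 to 4526 CPM in OKS cells, and astrocyte markers, 3.69 to 162 and 5.75 to 290.1 CPM, were likewise lower in OKMS at 6 of 6 days. Neuron markers (3 of 4 reached 1 CPM in OKMS, with Snap25 at 0) were higher in OKMS at 6 of 6 days, at 15.5 to 126 against 6.62 to 57.5 CPM. The R9 stem cells also had 76.7 and 116 CPM of the neuron markers, with 1 of 4 reaching 1 CPM. Pluripotency markers reached 5113 CPM in OKMS cells at day 10 and 100.4 CPM in OKS cells, and 9583 and 8332 CPM at day 20. Mitochondrial shares were 0.337% to 0.708% in OKMS and 0.387% to 0.990% in OKS cells, and lower in OKMS at 5 of 6 days. The part of these measures in the differences of the IGF genes was not tested.

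Whether the difference between the lines changed with time was tested as days 2 to 6 against days 10 to 20. No member was called, and neither was any of the 14275 genes (0%), with the same count of 0 members by edgeR and DESeq2 and 1136 genes at an unadjusted p under 0.05, no member among them. The largest shifts were 1.49 ± 0.88 (SE) for Igfbp6, 1.10 ± 0.59 (SE) for Igfbp3 and -0.96 ± 0.65 (SE) for Igfbp2, each under 2 standard errors, with 3 day pairs on each side.

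The R10 libraries gave 3 further day pairs. All 8 fitted differences were again negative, but none was called, as no gene of 15133 was (limma, 0%), with 2389 genes at an unadjusted p under 0.05, Igfbp3 and Igf1 among them. Igfbp3 read 305, 265 and 213 CPM in OKS cells at days 2, 6 and 18 and 162, 12.4 and 17.8 CPM in OKMS cells, a difference of -2.91 ± 0.61 (SE) with an unadjusted p of 0.00154 and an adjusted p of 0.235. Igf1 read 18.7, 41.0 and 0 CPM in OKS and 6.32, 0 and 0 CPM in OKMS cells (unadjusted p = 0.0496), and the day 6 ratio was at least 15.5-fold. Igfbp5 read 387, 81.5 and 0 CPM and 98.0, 3.53 and 1.48 CPM. By CPM, Igfbp3, Igfbp6 and Igfbp7 were lower in OKMS in 3 of 3 pairs, as 24.8% of genes were. At day 18 Igfbp2 read 251 CPM in OKMS against 192 CPM in OKS cells (169 and 150 reads). Igfbp4 (28 and 27 reads), Igfbp7 (20 and 29), Igf1r (17 and 19), Igfbp6 (1 and 2) and Igfbp5 (1 and 0) were too shallow there to give a direction. The day 18 pair thus adds little to the count for Igfbp6 and Igfbp7. edgeR called 0 members, DESeq2 2 members and 349 genes in all, and limma without the day 18 pair 1 member and 510 genes. OKMS cells at days 4 and 10 had R10 libraries without an OKS partner, with 30.9 and 26.3 CPM of Igfbp3, 29.8 and 184 CPM of Igfbp2 and 24.5 and 42.4 CPM of Igfbp4. Fitting all 9 pairs of both preparations together called 7 members and 2863 genes in all. Days 2 and 6 occur in both preparations, and as the labels do not say whether those libraries share RNA, the 9 pairs may not all be independent.

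Cells moved to 2iL were compared with cells of the same line and day left in serum, which asks what the change of medium does late in reprogramming. Igfbp3, Igfbp4 and Igf1r were called lower in 2iL, and Igfbp2, Igfbp6 and Igfbp7 were not called. By CPM those 3 genes were lower in each of the 5 pairs, though some pairs held few reads of them. Igfbp3 had 251 CPM in serum and 6.98 CPM in 2iL in the R9 OKS pair of day 20, 74.9 CPM in serum and 3.66 CPM in 2iL in the R9 OKMS pair of day 14, and 25.9 CPM in serum and 3.22 CPM in 2iL in that of day 20. In R10 at day 18 it had 213 CPM in serum and 14.1 CPM in 2iL for OKS, and 17.8 CPM in serum and 8.82 CPM in 2iL for OKMS. In serum the OKS libraries thus lay far above the OKMS libraries of these pairs. In 2iL the OKS libraries read 6.98 and 14.1 CPM, near the OKMS libraries at 3.22 to 8.82 CPM. The serum library of a pair is of the same day and is not the state from which the 2iL cells were moved. Igf1r, the receptor gene, had 20.8, 19.0, 6.16, 24.3 and 25.2 CPM in serum and 1.16, 3.66, 3.22, 3.13 and 5.29 CPM in 2iL, pairs in the same order. Igfbp4 had 27.3, 30.6, 4.93, 34.6 and 41.5 CPM in serum and 5.82, 0, 2.15, 6.26 and 3.53 CPM in 2iL. In 2iL the Igf1r values rest on 1, 3, 3, 2 and 3 reads. Those of Igfbp4 rest on 5, 0, 2, 4 and 2 reads. In the R9 OKMS pair of day 20 the serum library held 5 reads of Igf1r and 4 of Igfbp4, too few to give a direction. Igfbp3 in the R10 OKMS pair rests on 12 reads in serum and 5 in 2iL. Igfbp2 was lower in 2iL in 4 of 5 pairs and higher in the R9 OKMS pair of day 20, with 102 CPM in serum and 417 CPM in 2iL. Igfbp7 had 58.2, 156, 12.3, 37.1 and 29.7 CPM in serum and 93.1, 66.0, 103, 39.1 and 44.1 CPM in 2iL, by CPM higher in 4 of 5 pairs. Its R10 pairs rest on 29 reads in serum and 25 in 2iL for OKS, and on 20 and 25 for OKMS, too few to give a direction.

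With the pair as a block, limma called 3 of 6 tested members lower and 0 higher over 14933 genes, where 12.3% of all genes were called, 6.32% lower and 5.95% higher. The differences were -3.29 ± 0.43 (SE) for Igfbp3 (adjusted p = 5.15e-05), -2.69 ± 0.50 (SE) for Igfbp4 (adjusted p = 0.00135) and -2.17 ± 0.44 (SE) for Igf1r (adjusted p = 0.00257), and 11.0% of genes were lower in all 5 pairs. Igfbp7 (0.61 ± 0.38 (SE), adjusted p = 0.335) and Igfbp2 (-0.10 ± 0.30 (SE), adjusted p = 0.872) were not called, and Igfbp5 and Igf1 were too low to be tested. The 2 R10 pairs alone called 0 members and 181 genes in all (Igfbp4 -2.76, adjusted p = 0.0776), and the 3 R9 pairs alone 2 members, without Igf1r, and 1166 genes, against 1832 with all 5 pairs. Summed smooth muscle markers were lower in the same 5 pairs, from 139 to 744 CPM in serum to 1.07 to 15.6 CPM in 2iL, and fibroblast and mesenchymal markers from 19.3 to 113 CPM to 17.2 to 28.1 CPM. Pluripotency markers were higher in 2iL in all 5 pairs, at 10217 to 15896 CPM against 5726 to 15716 CPM. So were endothelial markers (Cdh5 at 0 in all 2iL libraries and Kdr in those of R10), at 70.9 to 108 against 13.5 to 54.9 CPM, and astrocyte markers, at 5.82 to 17.6 against 3.69 to 14.8 CPM. The stem cells also had 38.1 to 84.4 CPM of the endothelial markers in R10 and 70.1 to 84.7 CPM in R9. The part of these markers in the result was not tested. Doxycycline is part of the serum arm and is not listed for 2iL, so doxycycline, serum, the inhibitors and the N2B27 base with its insulin change together, and their effects cannot be told apart.

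**Figure D4:**
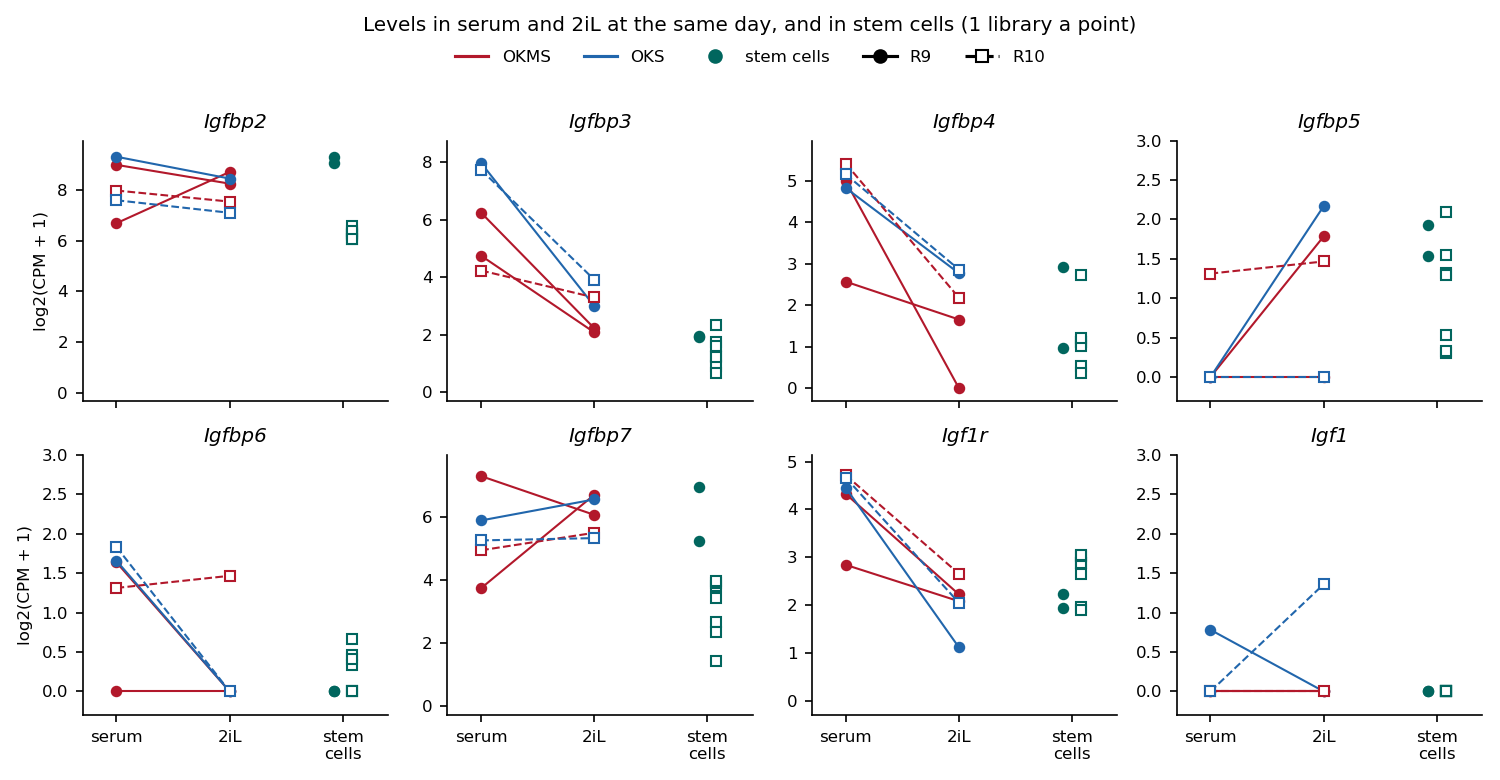
Levels on the log2(CPM + 1) scale (y axis) in serum and 2iL, lines joining libraries of the same line (OKMS red, OKS blue), day and preparation (R9 filled circles, R10 open squares), and in embryonic stem cells (green). By CPM, Igfbp3, Igfbp4 and Igf1r are lower in 2iL in all 5 pairs. The R9 OKMS pair of day 20 holds only 4 reads in serum and 2 in 2iL for Igfbp4, and 5 and 3 for Igf1r. Igfbp7 in 2iL lies at 39.1 to 44.1 CPM in R10 against 1.65 to 14.4 CPM in R10 stem cells.

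The 5 libraries of reprogrammed cells in 2iL were finally set against the 9 stem cell libraries. Of the 6 tested members only Igfbp3 was called, as higher in the reprogrammed cells: it read 3.66, 3.22 and 6.98 CPM in the R9 and 8.82 and 14.1 CPM in the R10 reprogrammed cells, against 2.84 and 2.79 CPM and 0.580 to 4.11 CPM in stem cells. The reprogrammed values rest on 3, 3, 6, 5 and 9 reads and the R9 stem cell values on 3 and 3, so the levels are near the detection limit. The difference was 1.46 ± 0.38 (SE) (adjusted p = 0.0319, limma with preparation as a term), the 1 call among 6 tested members, where 3.34% of 14944 genes were called, 1.85% higher and 1.49% lower. Of all calls 55.5% were thus higher, against 76.4% by edgeR and 79.5% by DESeq2. That call was lost under alternatives that included edgeR, a pseudocount of 0.25 and leaving out either R10 reprogrammed library, with adjusted p-values up to 0.766. Igfbp7 was 1.47 ± 0.45 (SE) with an adjusted p of 0.0680: in R10 the reprogrammed cells had 44.1 and 39.1 CPM against 1.65 to 14.4 CPM, while in R9 the ranges overlapped. Igf1r was -0.28 ± 0.32 (SE) and Igfbp4 0.57 ± 0.53 (SE), both without a call. Igfbp2, at 0.28 ± 0.24 (SE), was not called either, but it went in opposite directions in the preparations. In R10 it read 136 to 185 CPM in reprogrammed cells and 65.9 to 95.7 CPM in stem cells. In R9 it read 303 to 417 CPM in reprogrammed cells and 533 to 631 CPM in stem cells. The R10 libraries alone gave 3 member calls of 1437 over all genes and the R9 libraries alone 0 of 107, against 1 of 499 with both.

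Long reads also show which transcript of a gene was read, as the authors' TPM per assembled transcript. Igfbp2 was carried in R9 by a single 4-exon transcript, a full-splice match of 305 codons, with a median of 83.9% of the gene's TPM in progenitors, 86.7% in OKMS serum cells, 85.5% in OKS serum cells and 86.1% in stem cells. In R10 its share was 10.5% to 22.4% in progenitors and, by the median, 61.1% in stem cells (7.85% to 73.1%). The same split held for Igfbp3, whose 5-exon full-splice match of 292 codons begins at the RefSeq start and took 54.8% of TPM in R9 progenitors and 3.38% in R10 progenitors. The leading Igfbp4 transcript had 5 exons and 254 codons and was not in the reference catalogue: it begins 6234 bases upstream of the RefSeq start, at chr11 position 99035010. It held 38.5% of Igfbp4 TPM in R9 progenitors and 28.4% in R10 progenitors, and the transcripts that begin inside the printed Igfbp4 promoter held 56.1% and 65.3%. An unannotated antisense gene named after Igfbp4 also had reads in 30 libraries, up to 101 CPM, with 1172 reads in all against 15790 for Igfbp4, and as the use of strand in counting is not given in the sources used here, reads of the pair cannot be told apart.

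All 11 Igfbp5 transcripts begin inside the printed Igfbp5 window, at the low levels of progenitors and the higher ones of WT serum alike. Its 5-exon transcript of 301 codons took 73.7% of TPM in R9 progenitors and 80.1% in the R9 WT serum library, and 38.3% and 41.4% in R10. Igfbp7 in R9 serum libraries was mainly its 5-exon full-splice match of 281 codons, with medians of 71.7% in OKS and 59.0% in OKMS cells. In R10 serum libraries that form had medians of 7.13% in OKS, 18.5% in OKMS and 1.72% in WT cells, and a 3-exon non-coding transcript near its 3′ end took 41.4%, 55.2% and 69.2%. Igfbp6 had 2 transcripts of 238 codons each: the full-splice match took 100.0% in R10 progenitors, and the form that begins 8008 bases upstream took 100.0% (median) in R9 OKS serum cells and 62.4% in R10 OKS serum cells. Igf1r was read mostly as short forms, led by a 4-exon transcript of 256 codons with 42.7% of TPM in R10 progenitors, and in the R9 WT serum library a 2-exon non-coding transcript at its 3′ end took 82.7%. Transcripts that begin inside the RefSeq window of Igf1r held 7.99% (median) in R10 progenitors. None of the 9 Igf1 transcripts begins inside the RefSeq window, and the leading 4-exon form of 153 codons starts 2059 bases before the RefSeq start and took 44.2% of TPM in R10 OKS serum cells. Shares of genes with few reads, Igf1 and Igfbp6 above all, rest on single reads in many libraries.

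The preparations were compared in the 8 OKMS and OKS conditions that had 1 library in each, a comparison added after the files were seen. Igfbp2 was lower in R10 in 8 of 8 conditions, for example 544 against 2114 CPM in OKMS progenitors and 401 against 4236 CPM in OKS cells at day 2. Igfbp3 was lower in 8 of 8 as well, as 9.50% of genes were, and Igf1r higher in 8 of 8, as 10.7% were, the latter with 187 against 52.2 CPM in OKS cells at day 6. With condition as a block, limma called 4 of 8 members over 14233 genes, where 12.9% of all genes were called, 4.92% lower and 8.01% higher. These were Igfbp2 (-2.53 ± 0.14 (SE), adjusted p = 8.50e-12), Igfbp3 (-1.42 ± 0.13 (SE), 2.62e-08) and Igfbp7 (-1.20 ± 0.25 (SE), 5.86e-04), lower in R10, and Igf1r (1.28 ± 0.15 (SE), 4.49e-07), higher. Igfbp4, Igfbp5, Igfbp6 and Igf1 were not called. Whether the paired libraries came from the same RNA is not given in the labels.

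**Figure D5:**
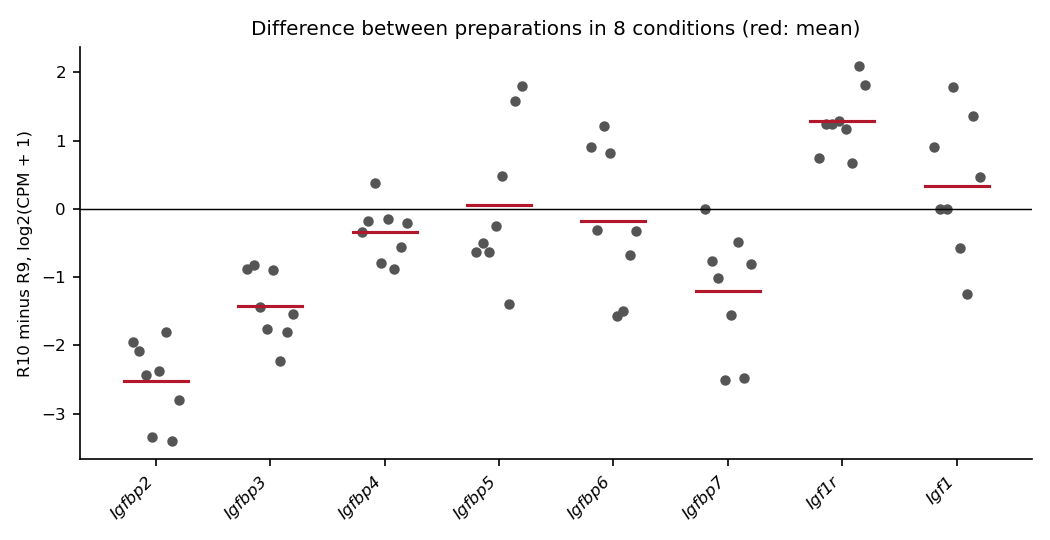
Difference between R10 and R9 on the log2(CPM + 1) scale (y axis) for the 8 genes in 8 conditions with 1 library of each preparation (grey points), with the mean in red. All points of Igfbp2 lie between -3.40 and -1.81, and all points of Igf1r between 0.67 and 2.10.

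Around the 8 genes, 41 other genes of the IGF pathway were listed, of which 34 had a row in the gene table. Between stem cells and progenitors 13 of 31 tested were lower and 4 higher in R10, where 45.8% of all genes were called, and 11 of 31 lower and 3 higher in R9, where 36.0% were, with list medians of -0.86 and -0.36 beside all-gene medians of 0.0061 and -0.071. Among the adaptors that pass on the signal, Irs1 and Irs2 were lower in stem cells, with differences of -3.24 (adjusted p = 2.11e-09) for Irs2 in R10 and -4.55 (adjusted p = 2.59e-04) in R9. The PI3 kinase subunit gene Pik3r1 and the kinase gene Akt1 were lower as well, at -2.82 (adjusted p = 3.44e-09) and -2.89 (adjusted p = 3.54e-09) in R10. Grb14, which encodes an adaptor that inhibits insulin receptor signalling, was lower at -4.42 (adjusted p = 1.76e-09), whereas the related and imprinted Grb10 was higher at 3.25 (adjusted p = 1.22e-08). Stc1, which encodes an inhibitor of PAPP-A, and Adamts1, a metalloprotease gene, were lower at -4.18 (adjusted p = 2.35e-10) and -3.86 (adjusted p = 3.47e-10). Igf2bp1, whose protein binds IGF2 mRNA, was higher at 5.52 (adjusted p = 2.24e-08). In the ligand and receptor group 2 genes could be tested, and only Igf2r, the IGF2 clearance receptor gene, was called, at -1.72 (adjusted p = 7.44e-07) in R10.

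In WT serum, 5 of 29 listed genes were higher and 3 lower, against 31.8% of all genes called, with Irs1 at 1.24 (adjusted p = 0.0401) and Foxo1, a transcription factor gene held in check by AKT, at 1.25 (adjusted p = 0.00400). The other higher genes were Adamts1 at 2.37 (adjusted p = 0.00165), Foxo3 at 1.93 (adjusted p = 1.96e-04) and Mtor at 1.18 (adjusted p = 0.0205). Stc2, another PAPP-A inhibitor gene, was lower at -2.47 (adjusted p = 7.50e-04), as were Igf2r at -1.47 (adjusted p = 0.0296) and Igf2bp3 at -1.25 (adjusted p = 0.00547). Over the R9 course 4 of 34 had a positive and 6 a negative largest difference among the called, against 10.7% of all genes called, and at day 2 none of 31 was called between cells with and without factors (limma). In the R9 comparison of OKMS with OKS cells, 6 of 31 were lower in OKMS, namely Irs2, Pik3r1, Grb14, Adamts1, Htra1 and Kazald1, and 3 higher, namely Igf2bp1, Igf2bp2 and Igf2bp3, against 11.0% of all genes called lower and 6.94% higher. The differences were -1.72 (adjusted p = 0.00114) for Irs2, -1.82 (adjusted p = 0.00191) for Pik3r1 and 1.94 (adjusted p = 0.00413) for Igf2bp3. Htra1 encodes a secreted protease that cleaves IGF-binding proteins, and its difference was -1.23 (adjusted p = 0.00692). The list median there was -0.29, beside -0.11 over all genes. In 2iL, 6 of 30 were lower than in serum and 0 higher, against 12.3% of all genes called: the ligand gene Igf2 at -4.73 (adjusted p = 2.94e-06), Irs2 at -2.65 (adjusted p = 0.00214), Grb14 at -2.58 (adjusted p = 0.00401), Grb10 at -1.94 (adjusted p = 0.00629), and Adamts1 and Pik3cb. Igf2 itself was low in most libraries, with medians of 8.95 CPM in R9 OKMS and 0.890 CPM in R9 OKS serum cells, and its highest value was 67.5 CPM. None of 27 listed genes was called between reprogrammed cells in 2iL and stem cells (limma).

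For each member, the genes with the most similar course were ranked among 14530 annotated genes by the smaller of Pearson's r over the 22 R9 and over the 23 R10 libraries, as a description across libraries that share preparation, depth and cell state. Igfbp3 ran closest to Pmp22 (0.96), Nrn1 (0.95) and Kif1a (0.95). Igfbp4 ran closest to Pde4b (0.95), Ptn (0.95) and Serpine2 (0.95), and Igf1r to Ano10 (0.94), Smarca2 (0.93) and Sdf2 (0.93). For Igfbp5 they were Ntrk2 (0.92), Nckap5 (0.91) and Agt (0.91), and for Igf1 Cst3 (0.93), Ak5 (0.92) and Slc8a1 (0.91). Igfbp2, at Clip2 (0.84), Pcbp3 (0.83) and Pja2 (0.82), Igfbp6, at Cacnb3 (0.88), Cd109 (0.86) and Fas (0.86), and Igfbp7, at Gadd45b (0.84), Itga3 (0.83) and Adamtsl4 (0.81), had less similar neighbours. No member was among the 3 nearest genes of another, and the neighbours Igfbp2 and Igfbp5 on chromosome 1 had an r of 0.71 in R9 and 0.51 in R10. Igfbp3 and Igfbp4 had 0.86 and 0.94.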

How the data were processed

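RNA of 45 libraries was read on R9 or R10 flow cells, per the labels' protocols, and the submitters' processing notes name minimap2 2.24-r1122, rtracklayer 1.50.0 and the mm10 build. Whether counting used strand is not given in the sources used here. The deposited gene table gives CPM and the deposited transcript table gives TPM, both made by the authors. 100% of CPM values came out as whole reads within 0.02 reads, and depth was taken from these steps. 13 columns of the gene table that match no library used here were left out.

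limma 3.58.1 (R 4.3.3) was fitted to log2(CPM + 1) over all genes with at least 1 CPM in as many libraries as the smaller arm holds. A call needs an adjusted p (Benjamini-Hochberg) under 0.05 and an absolute difference of at least 1. The fits had preparation, line, day or pair as additive terms as named with each comparison. edgeR 4.0.16 and DESeq2 1.42.0 on the recovered reads, a pseudocount of 0.25, a minimum of 5 CPM or none, quantile normalization, median centring, left-out libraries and single preparations were the alternatives, and the scripts were tested on simulated data. The members and lists were chosen with earlier results of these data known. The 8 members are all named, listed pathway genes have values where called in 2 or more comparisons or needed beside a result, and the 3 genes most like each member by the smaller r of the preparations. TPM were summed per gene and shares taken per transcript. Intervals and limits for 0 reads (3 reads) cover counting error only.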

Additional observations from a re-analysis of the deposited data

Results flagged for a closer look

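Among 24 groups of member values with 4 to 10 libraries, 4 held a library whose gap to its nearest neighbour took an unusually large share of the group's range (Dixon's 95% limit). Chance passes that limit in about 1 of 20 groups of normally distributed values, a rate that does not hold for counts near 0. Igfbp4 read 5.60 CPM (15 reads) in the R10 R1 stem cell library whose label carries no n number, against 0.290 to 1.31 CPM in the other 6 stem cell libraries of that preparation. Igfbp6 read 4.45 CPM (14 reads) in 1 R10 WT progenitor library, against 0.879 to 1.17 CPM in the other 3. The remaining ones rested on 1 read each: Igfbp6 at 1.69 CPM in the R9 OKS progenitors and Igf1 at 1.34 CPM in 1 R9 WT progenitor library, where the other libraries of the group had none. Such a group always passes the limit, as the gap is then the whole range.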

How the results depend on the processing

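Of the member values under all alternatives, 1123 kept their direction and side of the threshold, 36 lost and 22 gained a call, and 47 changed sign; the cause of these changes was not tested. For the WT medium comparison Igf1r turned to -0.070 with median centring, -0.10 by edgeR, -0.081 by DESeq2 and -0.36 in R10 alone, and R9 alone gave 0.54 for Igfbp2, 0.10 for Igfbp3 and 2 calls. At day 2, R10 alone gave -0.094 for Igfbp6, and R9 alone -0.45 for Igfbp4, -0.81 for Igfbp7 and -0.070 for Igf1r. For early against late days, Igfbp5 was 0.48 with a pseudocount of 0.25, 1.02 by edgeR and 0.69 by DESeq2, and Igf1 -0.049 with quantile normalization and -0.033 with median centring. R9 alone gave 0.14 for Igfbp2 in 2iL against serum, and -0.71 for Igfbp2 and -0.46 for Igfbp4 in 2iL against stem cells.

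Leaving out single libraries or pairs moved these over -0.36 to 0.39 (Igf1r), -0.75 to 0.37 (Igfbp2) and -0.54 to 0.074 (Igfbp3) for the medium, and over -0.12 to 0.83, -0.25 to 0.51, -0.094 to 0.92 and -0.22 to 1.90 for Igfbp2, Igfbp4, Igfbp6 and Igfbp7 at day 2. The ranges were -0.65 to 1.08, -0.74 to 0.22, -0.49 to 0.54 and -1.56 to 0.067 for Igf1, Igfbp4, Igfbp5 and Igfbp7 in early against late, -0.63 to 0.087 and -0.063 to 0.52 for Igfbp2 in 2iL against serum and stem cells, and -0.19 to 0.26 and -0.38 to 0.019 for Igfbp5 and Igfbp6 between preparations.

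Counts of called members moved to 8 by edgeR over the time course, to 0 without the day block for OKMS against OKS in R9, to 2 by DESeq2 in R10 and to 0 in R10 alone for 2iL against serum. For 2iL against stem cells the count was 0 by edgeR, without a filter, with a pseudocount of 0.25, at a minimum of 5 CPM or in R9 alone, and 3 in R10 alone. Without single libraries or pairs the counts ran from 0 to 2 there and from 0 to 1 for OKMS against OKS in R10. Replicate numbers 2 and 3 of the WT R10 libraries were shared between media (r = 0.47 between their deviations, 2 pairs), which was not taken as pairing. A replicate block gave 5 called members, adding Igfbp6 (limma, adjusted p = 0.0488), and -0.16 for Igf1r, with 4859 genes called in all against 4669 without it. The replicate block in R10 alone gave 4 called members, -0.36 for Igf1r and 5603 genes in all. Over all genes the calls fell from 2564 to 2 without the day block for OKMS against OKS, to 181 in R10 alone for 2iL against serum and to 1562 in R9 alone for the medium, and rose to 4568 by edgeR over the time course and 349 by DESeq2 for OKMS against OKS in R10. Leaving out 1 day, pair or library took them from 2076 to 601 (day 20) over the time course, to 1685 (day 6) for OKMS against OKS in R9, to 1210 (OKS, day 20) for 2iL against serum and to 259 (OKS, day 18) for 2iL against stem cells, where edgeR gave 220, DESeq2 298 and a minimum of 5 CPM 243. Low R9 depth, where 1 read is worth up to 2.23 CPM, limits the genes with few reads, Igf1 and Igfbp6 among them.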
